A study of Homo sapiens with 16 samples.

Results

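A set of 10 genes of the hypoxia response and of glycolysis, HIF1A, CA9, VEGFA, SLC2A1, HK2, LDHA, PGK1, PDK1, NDRG1 and ENO1, was read by symbol from a table of RNA-seq read counts on 35993 genes, and all 10 were in the table and passed the filter on low counts. The counts came from 253J, J82, RT112 and TCCSUP, 4 established lines of human bladder cancer, each labelled wild type. In every line cells were seeded and then grown for 48 h with CM-1758, an inhibitor of histone deacetylases, at the IC50 found for that line, or, by the labels, with 0.01% DMSO as the vehicle control (the study's text elsewhere calls the RNA-seq controls untreated), and 2 libraries were made per line and treatment (16 in all). The dose was set for each line, so dose and cell line cannot be told apart. TCCSUP was grown in EMEM medium and the other lines in DMEM, so medium cannot be told apart from the line in comparisons with TCCSUP, while 253J, J82 and RT112 shared a medium. No oxygen level other than that of routine culture is named for any group.

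Cells read low oxygen through the hypoxia-inducible factors. With oxygen present, prolyl hydroxylases of the EGLN family mark the HIF1A protein and the VHL complex sends it for destruction, so that HIF activity is set largely at the protein and the HIF1A transcript does not measure it. When the protein is stable it pairs with ARNT and binds short DNA elements with the core ACGTG or GCGTG near its targets, among them the glucose transporter SLC2A1 (GLUT1), most enzymes of glycolysis, VEGFA, which drives vessel growth, and CA9, a carbonic anhydrase at the cell surface that is often stained in bladder tumors as a mark of hypoxia. Glycolytic genes are high in many tumors with oxygen present too, and several are also targets of MYC.

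The libraries held between 22506431 and 32537104 counted reads, 27655401 to 32537104 in controls and 22506431 to 31547585 after treatment. Levels are given in CPM, the count of a gene scaled to a common library size after TMM, edgeR's correction for library composition. Differences are log2 fold changes of treated over control with standard errors (SE), from the quasi-likelihood test of edgeR, with p-values adjusted over all 21297 genes tested by Benjamini-Hochberg, and a gene was called at an adjusted p under 0.05. By the chi-square of their counts per degree of freedom, libraries of one group differed most in J82 controls, at 57.4, against 9.51 in TCCSUP controls. By the Pearson correlation of log2 CPM the lowest value was in treated TCCSUP (0.983). Small noncoding RNA genes took 9.58 to 13.2% of counts in controls and 10.2 to 21.3% after treatment, and leaving them out moved the median log2 fold change of all genes by -0.00095 to 0.00025. Scaling by library size alone moved that median up by 0.27 (253J), 0.14 (J82), 0.15 (RT112) and 0.31 (TCCSUP), so directions below are relative to the TMM scale.

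The epithelial keratins KRT8, KRT18 and KRT19 were counted in every line. The urothelial differentiation markers UPK2 and UPK3A were at 0 in all 253J and J82 libraries, and UPK3A was at 0 in all RT112 libraries. The summed level of 12 urothelial and epithelial markers was 1329 and 1451 CPM in TCCSUP controls and 595 and 511 CPM in treated TCCSUP, the lowest of the lines. Their part in the results was not tested. Of these markers, 2 rose and 3 fell of 9 measured in 253J, and 4 rose and 1 fell of 9 in J82. In RT112 1 rose and 2 fell of 11, and in TCCSUP 4 rose and 4 fell of 11. The shares of all genes called higher and lower were 28.8% and 22.4% (253J), 24% and 18.5% (J82), 27.4% and 20.2% (RT112), and 32% and 22.1% (TCCSUP). Among the calls that single libraries removed were KRT18, KRT19 and UPK1B in J82, without treated replicate 3. The KRT7 call in RT112 was lost under 15 of 25 alternatives. Leukocyte markers summed to 3.56 to 68.5 CPM, with CD68 the most abundant in every library, and the T cell marker CD3E was at 0 in all J82 and RT112 libraries. Endothelial markers summed to at most 6.73 CPM.

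Treatment with CM-1758 lowered more of the 10 genes than it raised in 253J, RT112 and TCCSUP, and raised more than it lowered in J82. ENO1, the enolase of glycolysis, fell in all 4 lines, and it was the only one of the 10 to do so; 6.01% of all tested genes were lower in all 4 lines. HIF1A and SLC2A1 changed in every line, down in 253J, RT112 and TCCSUP and up in J82. NDRG1, a stress-induced gene, rose in 253J, J82 and TCCSUP, by 12.1-fold in TCCSUP. No member rose in all 4 lines, against 6.69% of all genes.

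In 253J, 1 of 9 measured members was higher and 5 were lower, where 28.8% of all tested genes were called higher and 22.4% lower. Their median log2 fold change was -0.83, beside 0.10 over all genes. J82 displayed 4 members higher and 1 lower of 9 measured, with 24% and 18.5% of all genes called, and medians of 0.42 for members and 0.05 for all genes. In RT112, 0 of 10 members were higher by edgeR, as also at an unadjusted p under 0.05 (0) and with DESeq2 (0), and 6 were lower, against 27.4% and 20.2% of all genes, with medians of -0.56 and 0.12. TCCSUP had 1 higher and 7 lower of 10, against 32% and 22.1% of all genes, with medians of -0.56 and 0.20. The 7 lower became 4 without control replicate 2 or treated replicate 1, and 4 lower stood beside 3 higher with library size scaling and with a filter of at least 10 counts in every library. The 1 lower in J82 became 0 with J82 fitted alone and 2 without J82 control replicate 1 or 253J control replicate 3, 253J had 2 higher with library size scaling, and RT112 had 1 higher with the 10-count filter. Under the alternatives that kept all libraries and the 0.05 threshold, J82 had 3 to 5 members higher and RT112 had 5 to 6 lower. Leaving out single libraries also moved both of these counts. CA9 was left out of the count in 253J and J82, where it was at or under 3 counts in every library. Of the 38 measured pairs of gene and line, 6 were higher, 19 lower and 13 not called, and the control and treated libraries overlapped in 7 of the last.

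**Figure D1:**
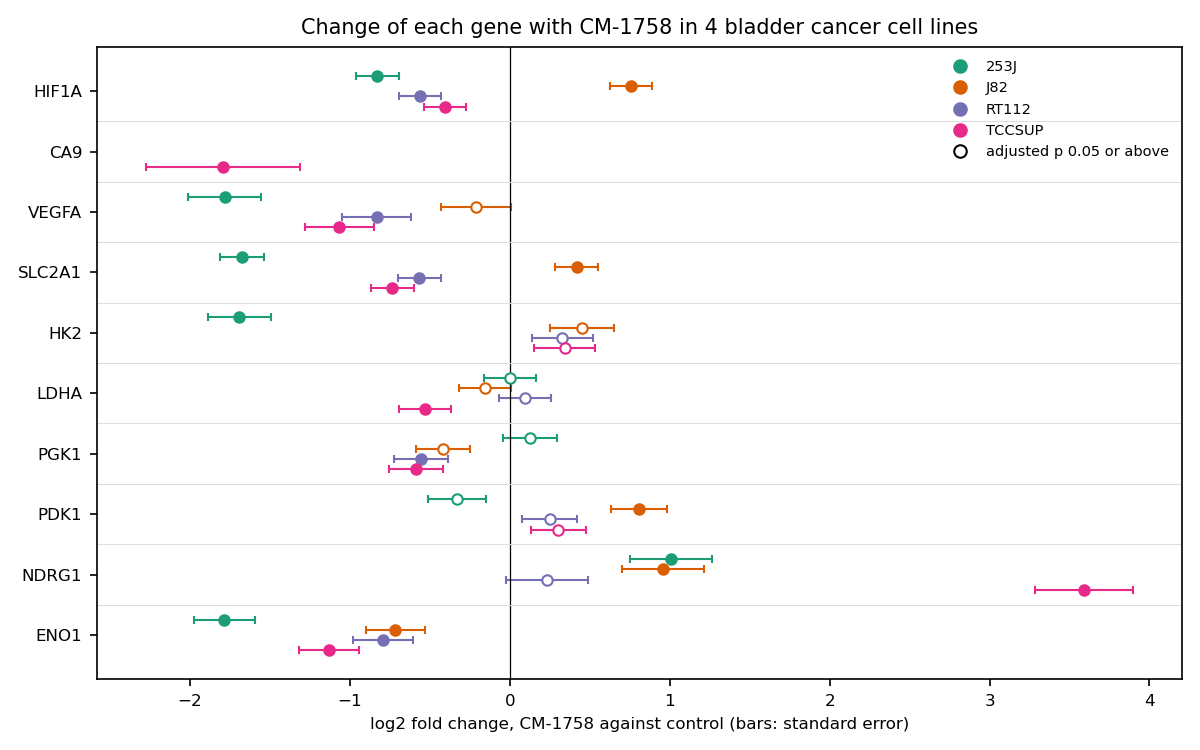
Log2 fold change of treated over control (horizontal axis) for each of the 10 genes (vertical axis) in the 4 cell lines, as points with bars of 1 SE, with 2 libraries per group and open points for differences that were not called. CA9 is drawn for TCCSUP only, since it was at or under 3 counts in 253J and J82 and at 0 in treated RT112. ENO1 lies left of 0 in all 4 lines, and NDRG1 in TCCSUP stands at 3.59.

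Most changes were of moderate size. At the stricter threshold of a log2 fold change past 2 with an adjusted p under 0.01, only CA9 in RT112 was lower, where 1.39% of all genes were lower and 11.4% higher, and only NDRG1 in TCCSUP was higher, where 14.2% of all genes were higher and 3.31% lower. No member passed it in 253J, where 9.43% of all genes were higher and 3.5% lower, or in J82, where 8.81% were higher and 1.24% lower, although at the 0.05 threshold edgeR called 6 members in 253J and 5 in J82. With DESeq2 the stricter count was also 0 in both lines.

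Promoter sequences are printed for ENO1, which fell in every line, for SLC2A1, whose direction differed between lines, for LDHA, which was called in TCCSUP alone, and for CA9, the member with the fewest reads in 253J, J82 and RT112. They are the 250 bases before the RefSeq start on GRCh38.p14, written 5′ to 3′ on the strand of the gene, with ACGTG or GCGTG on this strand and CACGT or CACGC, the same letters on the opposite strand, in capitals. ENO1 lies on the minus strand of chromosome 1 (chr1:8878687-8878936), SLC2A1 on the minus strand of chromosome 1 (chr1:42958869-42959118), LDHA on the plus strand of chromosome 11 (chr11:18394313-18394562) and CA9 on the plus strand of chromosome 9 (chr9:35673678-35673927).
ENO1: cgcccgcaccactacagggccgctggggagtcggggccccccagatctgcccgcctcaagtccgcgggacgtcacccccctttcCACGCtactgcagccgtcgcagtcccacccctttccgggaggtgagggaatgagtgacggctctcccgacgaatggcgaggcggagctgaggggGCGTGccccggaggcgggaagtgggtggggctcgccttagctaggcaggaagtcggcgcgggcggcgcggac
SLC2A1: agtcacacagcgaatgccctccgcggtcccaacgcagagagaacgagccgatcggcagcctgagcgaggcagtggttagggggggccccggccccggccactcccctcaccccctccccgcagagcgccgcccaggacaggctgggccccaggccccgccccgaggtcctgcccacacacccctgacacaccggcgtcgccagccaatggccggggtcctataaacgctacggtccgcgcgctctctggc
LDHA: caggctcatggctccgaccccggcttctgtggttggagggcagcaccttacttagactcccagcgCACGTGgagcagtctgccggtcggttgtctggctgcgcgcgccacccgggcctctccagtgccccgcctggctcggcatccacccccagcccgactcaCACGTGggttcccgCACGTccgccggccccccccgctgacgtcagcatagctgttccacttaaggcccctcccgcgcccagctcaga
CA9: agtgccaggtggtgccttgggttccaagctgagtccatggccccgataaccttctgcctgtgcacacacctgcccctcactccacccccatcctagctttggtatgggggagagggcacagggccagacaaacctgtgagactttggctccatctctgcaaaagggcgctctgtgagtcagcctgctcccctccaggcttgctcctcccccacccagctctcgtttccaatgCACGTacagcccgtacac

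The LDHA window held the letters in 3 separate places, and at 2 of them the palindrome CACGTG gave a match on both strands. ENO1 held 2 matches, beginning 166 and 72 bases before the start, CA9 held 1 beginning 18 bases before it, and SLC2A1 held 0. Windows for 8 of the 10 members were at hand, and 6 of those 8 held ACGTG or GCGTG on either strand, where 43.2% of 35116 promoter windows of the same length did. With ACGTG alone the count was 4 of 8, against 18.5% of all windows. Of the other members HK2 and PGK1 held 3 matches each, HIF1A held 1 and PDK1 held 0. These counts describe letters in 250 bases and carry nothing about binding, and distal elements were not searched.

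HIF1A, the oxygen-regulated subunit of the factor, changed in all 4 lines. In 253J it stood at 330 and 283 CPM in controls and at 174 and 172 CPM after treatment. In J82 the controls held 371 and 353 CPM and the treated libraries 614 and 613 CPM. Every treated library was thus below both controls in 253J and above both in J82. In RT112, 778 and 764 CPM were measured in controls and 490 and 557 CPM in treated cells. For TCCSUP the values were 860 and 884 CPM in controls against 627 and 689 CPM in treated cells. Both of these lines had treated libraries below their controls, with no overlap. The log2 fold changes were -0.83 (SE 0.13, adjusted p = 9.63e-05) in 253J, 0.76 (SE 0.13, adjusted p = 0.000305) in J82, -0.56 (SE 0.13, adjusted p = 0.00278) in RT112 and -0.41 (SE 0.13, adjusted p = 0.0166) in TCCSUP. The TCCSUP call was lost with library size scaling (-0.09, adjusted p = 0.557), with a minimum of 10 counts in every library, and without either TCCSUP control or without treated replicate 1, while the other calls of HIF1A held under every alternative.

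The effect in J82 differed from that in each other line, from 253J (253J minus J82 was -1.59 on the log2 scale, SE 0.19, adjusted p = 1.85e-05), by 1.32 from RT112 (SE 0.19, adjusted p = 0.000137) and by 1.17 from TCCSUP (SE 0.19, adjusted p = 0.000387). Among all tested genes, 30% passed the same threshold for 253J with J82 and with RT112, 28.6% for 253J with TCCSUP, 22.2% for J82 with either RT112 or TCCSUP, and 27.5% for RT112 with TCCSUP. In controls HIF1A was ordered TCCSUP, RT112, J82 and 253J, with means of 872, 771, 362 and 307 CPM. The neighbours TCCSUP and RT112 did not differ beyond their spread (adjusted p = 0.283), nor did J82 and 253J (adjusted p = 0.14), while RT112 was above J82 (adjusted p = 4.91e-06). Between the controls of 2 lines, 53.1% of all genes differed for 253J with J82 and with TCCSUP, 54.3% for 253J with RT112, 52.1% for J82 with RT112, 48% for J82 with TCCSUP and 51.5% for RT112 with TCCSUP. The related subunit EPAS1 (HIF2A), named here after its values were seen, fell in 253J (-0.93), RT112 (-0.77) and TCCSUP (-1.04) and rose in J82 (1.34), with adjusted p from 3.14e-05 to 0.00216. The antisense transcript HIF1A-AS2 rose in 253J (1.11 to 7.32 CPM) and J82 (2.50 to 6.44 CPM). Since the strand setting of the counting is not given in the sources used here, reads of HIF1A and its antisense partners cannot be told apart with certainty, though HIF1A-AS2 stood at 7.32 CPM or less as a group mean.

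Of 10 genes for HIF subunits and oxygen sensing, 4 were higher and 2 lower in 253J, 3 and 2 in J82 (9 measured), 4 and 2 in RT112, and 4 and 3 in TCCSUP, with medians of 0.32, 0.23, 0.35 and 0.11. Of all genes, 28.8% were higher and 22.4% lower (253J), 24% and 18.5% (J82), 27.4% and 20.2% (RT112), and 32% and 22.1% (TCCSUP), and each count of the list was within 2 genes of these shares. With 1 gene at the floor set at its bound the RT112 median was 0.12. Single libraries moved these counts: in TCCSUP 1 gene was higher without control replicate 1 or treated replicate 1 and 2 without control replicate 2 or treated replicate 2, and 1 was lower without control replicate 2 or treated replicate 1. In J82, 5 were higher without control replicate 3, and in 253J 1 was lower without control replicate 2 or treated replicate 3 and with library size scaling. In RT112 1 was lower with RLE, library size scaling, DESeq2 and the 10-count filter, and without any 1 of 9 of the 16 libraries, all 4 of RT112 among them. EGLN3, a prolyl hydroxylase that is itself a HIF target, rose in all 4 lines, from 2.20 to 36.6 CPM in J82 (log2 fold change 4.06, SE 0.32, adjusted p = 2.61e-07) and from 1.34 to 10.8 CPM in 253J. Its call in TCCSUP (log2 fold change 1.09) was lost without control replicate 1 (0.84, adjusted p = 0.0723) or treated replicate 1 (0.77, adjusted p = 0.082). CITED2, which competes with HIF1A for the coactivator p300, also rose in all 4, by 10.8-fold in RT112 and 2.17-fold in J82, where the call was lost without control replicate 1 (0.89 on the log2 scale, adjusted p = 0.0529) or treated replicate 3 (0.71, adjusted p = 0.0921). EGLN2, another prolyl hydroxylase, fell in 253J (-0.70), J82 (-1.12) and TCCSUP (-0.61) and was at -0.23 in RT112 (adjusted p = 0.34). The EGLN2 calls in 253J and TCCSUP were each lost with library size scaling and without either of 2 libraries (control replicate 2 or treated replicate 3 in 253J, control replicate 2 or treated replicate 1 in TCCSUP).

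**Figure D2:**
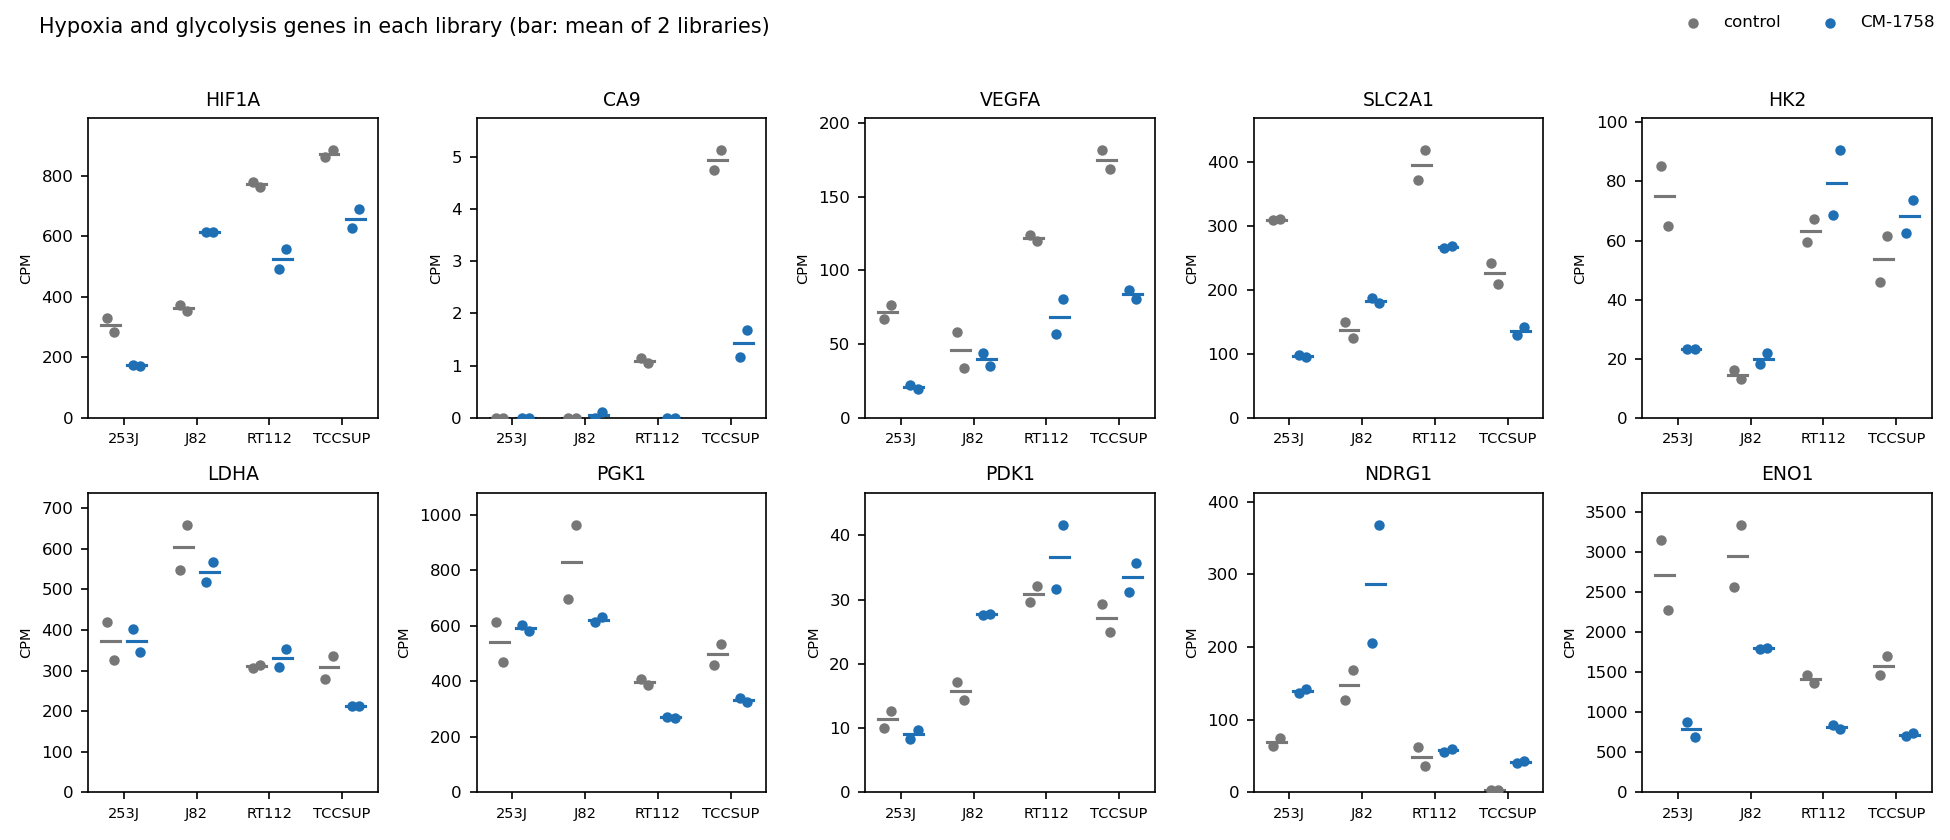
Level in CPM (vertical axis, TMM-scaled) of each of the 10 genes in every library, by cell line and treatment, with points for the 2 libraries of a group and a bar at their mean. HIF1A and SLC2A1 are lower after treatment in 253J, RT112 and TCCSUP and higher in J82, while ENO1 is lower after treatment in every line.

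CA9 had the fewest reads of the members in 253J, J82 and RT112. No read was counted in any 253J library, which allows up to 3 counts in each, and J82 had 3 reads in treated replicate 3 and 0 elsewhere, so no fold is given for these lines. RT112 controls held 35 and 31 reads (1.14 and 1.05 CPM) and both treated libraries 0, a level at least 9.35-fold lower against a floor of 3 counts per library (adjusted p = 0.000296). TCCSUP controls held 120 and 134 reads (4.75 and 5.13 CPM) and treated libraries 31 and 43 (1.16 and 1.69 CPM). Treated libraries were below controls in both of these lines without overlap. The fall in TCCSUP was -1.79 on the log2 scale (SE 0.48, adjusted p = 0.00889), and without treated replicate 1 of TCCSUP it lost its call (adjusted p = 0.0756). The control level in TCCSUP was above that in RT112 (adjusted p = 0.00311).

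VEGFA fell in 3 lines. In 253J it was at 67.0 and 76.5 CPM in controls and 22.4 and 19.3 CPM after treatment. RT112 controls stood at 124 and 120 CPM and treated libraries at 56.5 and 80.4 CPM. In TCCSUP the levels were 181 and 169 CPM before and 86.9 and 80.4 CPM after. Controls and treated libraries were apart in each of these lines. The log2 fold changes were -1.78 in 253J (SE 0.23, adjusted p = 1.08e-05), -0.83 in RT112 (SE 0.22, adjusted p = 0.00549) and -1.07 in TCCSUP (SE 0.22, adjusted p = 0.000806). Without treated replicate 1 the RT112 value was -0.60 and not called (adjusted p = 0.0783). In J82 the controls disagreed with each other, at 58.1 and 34.0 CPM, around treated values of 44.1 and 35.3 CPM, and the difference of -0.21 was within the spread (SE 0.22, adjusted p = 0.469). It was 0.22 without control replicate 1 (adjusted p = 0.435) and -0.55 without control replicate 3 (adjusted p = 0.0432). The effect in 253J minus that in J82 was -1.57 (SE 0.31, adjusted p = 0.0014), and minus that in RT112 it was -0.95 (SE 0.31, adjusted p = 0.0299). Control levels ran TCCSUP, RT112, 253J and J82, with 175, 122, 71.7 and 46.0 CPM, and TCCSUP and RT112 did not differ beyond their spread (adjusted p = 0.0546).

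SLC2A1, the main transporter of glucose into many tumor cells, had a different effect in most pairs of lines. In 253J it went from 309 and 310 CPM to 98.8 and 94.96 CPM, a log2 fold change of -1.68 (SE 0.14, adjusted p = 2.13e-07). J82 controls held 149 and 124 CPM and treated libraries 187 and 179 CPM, a rise of 0.42 (SE 0.13, adjusted p = 0.0197). Both treated J82 libraries thus exceeded both controls, but the call was lost when J82 was fitted alone (adjusted p = 0.144) and without control replicate 3 (adjusted p = 0.154). RT112 fell from 371 and 418 CPM to 266 and 268 CPM (-0.56, SE 0.13, adjusted p = 0.00292). TCCSUP fell from 242 and 209 CPM to 130 and 142 CPM (-0.73, SE 0.13, adjusted p = 0.000335). The falls in 253J, RT112 and TCCSUP were called under every alternative. Every pair of lines differed in effect (adjusted p from 1.73e-06 to 0.00168) except RT112 and TCCSUP, whose difference was 0.17 (SE 0.19, adjusted p = 0.582). In controls RT112 was highest at 394 CPM, followed by 253J (310), TCCSUP (225) and J82 (137), and each neighbour in that order differed, the closest being RT112 and 253J (adjusted p = 0.0372).

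SLC2A3 (GLUT3), the neuronal glucose transporter with a high affinity for glucose, rose in all 4 lines. It went from 51.3 ± 15.97 to 437 ± 133 CPM in J82, from 61.3 ± 2.98 to 343 ± 63.7 CPM in TCCSUP and from 0.849 ± 0.00201 to 28.4 ± 1.83 CPM in RT112 (mean ± SD, n = 2), with log2 fold changes of 3.09, 2.48 and 5.06. In 253J it stood at 3 counts in each control and at 6 and 20 counts after treatment (adjusted p = 0.0371), a call that was lost without either control library or treated replicate 3 (adjusted p up to 0.449). The share of SLC2A1 in the reads of both transporters went from 70.4 and 75.6% to 35.3 and 25.2% in J82, and from 80.3 and 76.7% to 25.0 and 32.2% in TCCSUP. In RT112 it went from 99.8% in both controls to 89.9 and 90.8%, and it was above 99% in every 253J library. The exact 95% binomial interval of each of these shares reached at most 1.28 percentage points from it, for counting error only, and shares are of reads without correction for length. The near-identical copy SLC2A14 also rose in J82, RT112 and TCCSUP, to at most 11.4 CPM as a group mean, and reads split between it and SLC2A3 make both values uncertain.

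HK2, the hexokinase that many tumors use in the first step of glycolysis, fell in 253J alone, from 85.3 and 64.9 CPM to 23.4 and 23.2 CPM (-1.69, SE 0.20, adjusted p = 4.87e-06). In J82 it was at 16.1 and 13.1 CPM in controls and 18.1 and 21.8 CPM after treatment (0.45, SE 0.20, adjusted p = 0.0808). In RT112 (0.33, SE 0.19, adjusted p = 0.168) and TCCSUP (0.34, SE 0.19, adjusted p = 0.141) the values also lay above 0 without passing the test. Treated libraries were above controls without overlap in all 3 of these lines. The effect in 253J differed from each of the others by -2.02 to -2.14 (adjusted p from 4.4e-05 to 5.93e-05), while the other pairs were -0.02 to 0.12 apart (adjusted p of 0.881 or more). HK1, the ubiquitous hexokinase, was at 1.48 CPM in 253J controls and rose to 10.4 CPM there (log2 fold change 2.82, adjusted p = 2.8e-08). The share of HK2 in the reads of the pair went from 98.5 and 97.5% to 68.5 and 69.6% in 253J, while in the other lines HK2 was 12.0 to 30.2% in every library.

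ENO1, which makes phosphoenolpyruvate, had the highest level per kilobase of the members in the controls of every line. Divided by the length of its longest coding transcript in GENCODE on GRCh38, a build other than the one the reads were mapped to, it stood at 1156, 1259, 602 and 674 CPM per kb in the controls of 253J, J82, RT112 and TCCSUP. LDHA came next in 253J (154) and J82 (250), and HIF1A in RT112 (195) and TCCSUP (220). CA9 was lowest in 253J, J82 and RT112, and NDRG1 was lowest in TCCSUP at 0.927 CPM per kb.

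ENO1 fell in 253J from 3145 and 2275 CPM to 882 and 691 CPM (-1.78, SE 0.19, adjusted p = 2.2e-06). J82 went from 2568 and 3337 CPM to 1795 and 1803 CPM (-0.71, SE 0.19, adjusted p = 0.00597). Both lines had controls that were spread widely and treated libraries that lay below them. RT112 went from 1459 and 1366 CPM to 839 and 791 CPM (-0.79, SE 0.19, adjusted p = 0.00275). TCCSUP went from 1463 and 1699 CPM to 701 and 741 CPM (-1.13, SE 0.19, adjusted p = 0.00014). No control library in any line was as low as the highest treated one of that line. The J82 call was lost with J82 fitted alone (adjusted p = 0.0952) and without control replicate 3 (adjusted p = 0.0606). The effect in 253J differed from that in J82 by -1.07 (SE 0.26, adjusted p = 0.00608) and from that in RT112 by -0.99 (SE 0.26, adjusted p = 0.0098), and the difference from TCCSUP, -0.65, missed the threshold (SE 0.26, adjusted p = 0.0777).

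The neuronal enolase ENO2 rose in all 4 lines, from 12.6 to 65.9 CPM in 253J, 42.7 to 62.4 CPM in J82, 4.14 to 23.8 CPM in RT112 and 42.2 to 91.3 CPM in TCCSUP. The J82 call (adjusted p = 0.00903) was lost with J82 fitted alone (0.0585) and without control replicate 3 (0.0889) or treated replicate 3 (0.0556). The muscle form ENO3 was not called in any line (adjusted p from 0.202 to 0.81) and was at 2.95 CPM or less. ENO1 therefore remained most of the enolase reads, at 97.2% or more in every control and at 87.9% or more in every treated library. Reads assigned to the pseudogene ENO1P1 were seen above the floor in RT112, at 3.04 CPM before and 0.847 CPM after treatment, which is small beside ENO1 itself. This difference was called by edgeR (adjusted p = 0.0464) but not with RLE (adjusted p = 0.0561), library size scaling (0.0688) or DESeq2 (0.861), nor without any 1 of the 4 RT112 libraries.

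LDHA, which turns pyruvate into lactate, was called in TCCSUP alone, where it went from 280 and 336 CPM to 214 and 213 CPM (-0.53, SE 0.16, adjusted p = 0.0123). That call was lost with library size scaling (-0.22, adjusted p = 0.238), with at least 10 counts in every library, and without control replicate 2 or either treated library. In the other lines treated and control libraries overlapped, and the differences were 0.0026 in 253J, -0.16 in J82 and 0.10 in RT112, each with an SE of 0.16. LDHB, whose subunit favours the conversion of lactate to pyruvate, fell in 253J from 1092 to 491 CPM (-1.15, adjusted p = 0.000298) and in RT112 from 451 to 171 CPM (-1.40, adjusted p = 8.36e-05). The LDHA share of LDHA and LDHB reads went from 25.5 and 25.3% to 43.3 and 43.1% in 253J, and from 39.8 and 41.8% to 65.2 and 66.6% in RT112. In TCCSUP, where LDHA itself was called, the share was 46.9 and 48.3% before and 45.4 and 46.5% after.

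PGK1, the first enzyme of glycolysis to yield ATP, fell in RT112 from 408 and 387 CPM to 271 and 269 CPM (-0.56, SE 0.17, adjusted p = 0.0134). In TCCSUP it fell from 459 and 536 CPM to 339 and 324 CPM (-0.59, SE 0.17, adjusted p = 0.00849). J82 had controls at 694 and 963 CPM and treated libraries at 612 and 630 CPM, a value of -0.42 that missed the threshold (SE 0.17, adjusted p = 0.0591). It passed without control replicate 3 of 253J (adjusted p = 0.04998) and without control replicate 1 of J82 (-0.63, adjusted p = 0.00808). In 253J the groups overlapped (0.13, SE 0.17, adjusted p = 0.574). The RT112 call was lost without control replicate 1 or either treated library, and the TCCSUP call with library size scaling (-0.28, adjusted p = 0.148) and without control replicate 2 or treated replicate 2. The difference between 253J and RT112 was 0.68 (SE 0.24, adjusted p = 0.0414) and that between 253J and TCCSUP 0.71 (SE 0.24, adjusted p = 0.0349), although the test over all 4 lines missed the threshold (adjusted p = 0.0581).

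**Figure D3:**
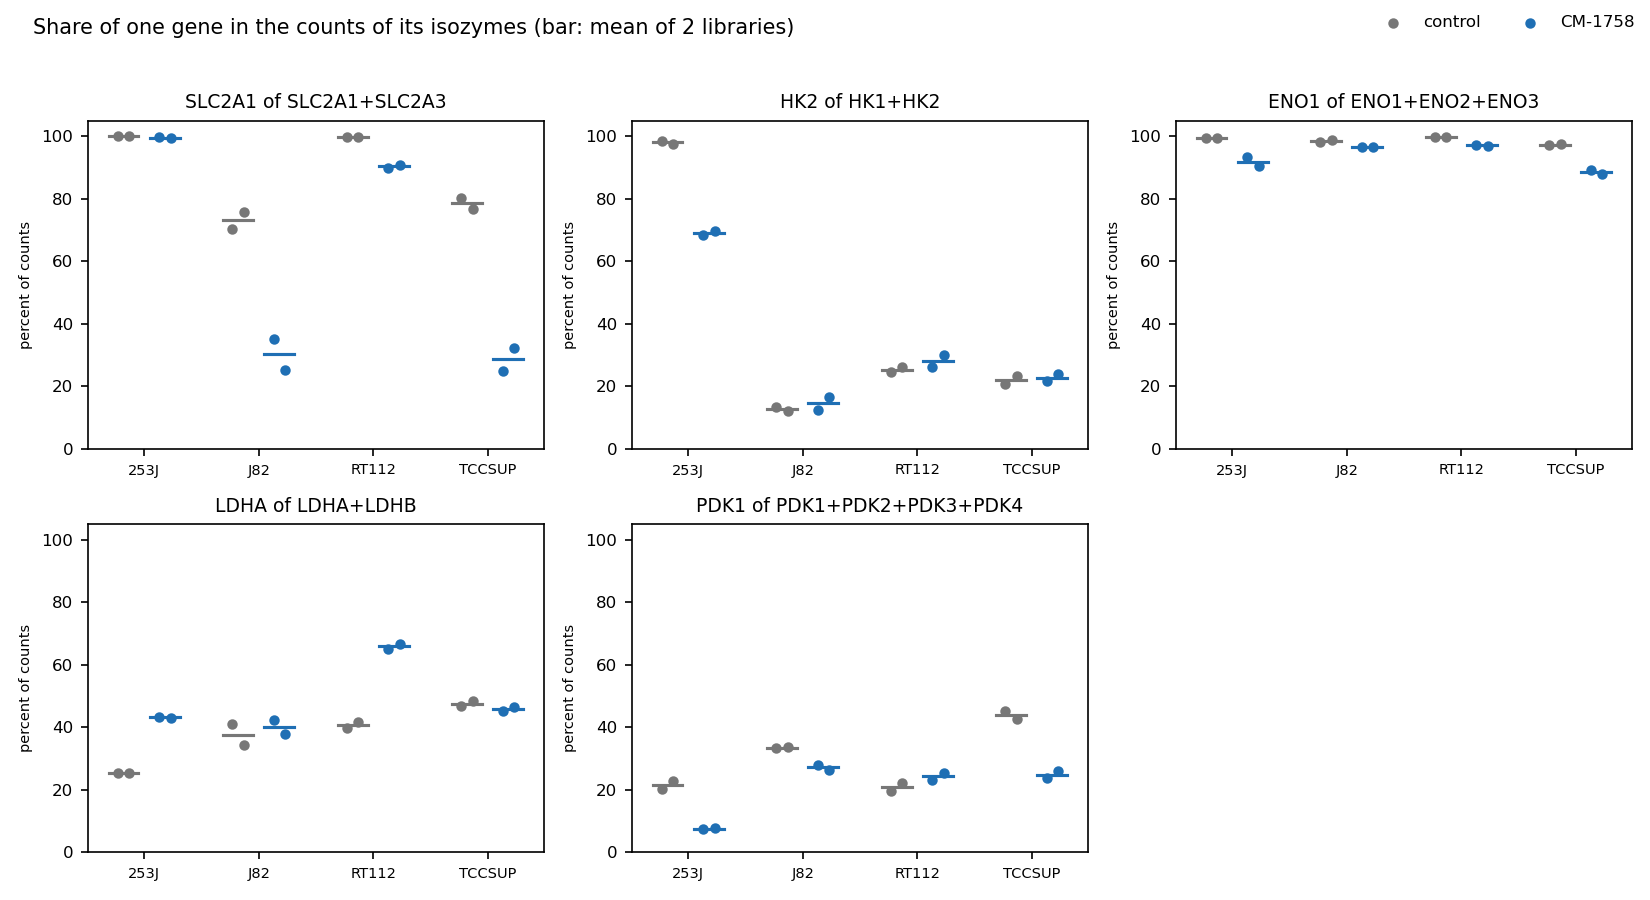
Share of reads (vertical axis, percent) taken by each member among the genes of its family, per library, by cell line and treatment. The SLC2A1 share of SLC2A1 and SLC2A3 reads is lower after treatment in J82, TCCSUP and RT112, the HK2 share of hexokinase reads in 253J, and the PDK1 share of the 4 pyruvate dehydrogenase kinases in 253J, TCCSUP and J82, while the LDHA share is higher in 253J and RT112.

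PDK1, a kinase that shuts pyruvate dehydrogenase and so keeps pyruvate out of the citric acid cycle, rose in J82, from 17.2 and 14.4 CPM to 27.6 and 27.8 CPM (0.81, SE 0.17, adjusted p = 0.0016). It was not called in 253J (-0.33, SE 0.18, adjusted p = 0.145), RT112 (0.25, SE 0.17, adjusted p = 0.243) or TCCSUP (0.30, SE 0.17, adjusted p = 0.148). Its J82 effect differed from that in 253J, 253J minus J82 being -1.14 (SE 0.25, adjusted p = 0.00297). Of the other kinases of the family, PDK4 and PDK2 rose in all 4 lines and PDK3 in 253J, J82 and TCCSUP, while PDK3 was at -0.21 in RT112 (adjusted p = 0.226). PDK4 went from 1.67 to 10.8 CPM in 253J and from 2.04 to 13.6 CPM in TCCSUP, and PDK2 from 4.41 to 15.97 CPM in TCCSUP. In RT112 PDK4 was barely detected, with a mean of 0.0654 CPM in controls and 0.658 CPM after treatment. PDK3, at 27 CPM in 253J controls, reached 78.2 CPM there. The PDK1 share of kinase reads went from 20.2 and 22.7% to 7.47 and 7.79% in 253J and from 45.1 and 42.8% to 23.8 and 25.9% in TCCSUP, and in J82, where PDK1 rose, from 33.3 and 33.6% to 28.0 and 26.4%. In RT112 the share was higher after treatment, at 19.6 and 22.04% before and 23.2 and 25.4% after.

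Of 12 genes at the entry of pyruvate to the citric acid cycle, 6 were higher and 1 lower in 253J, 5 and 2 in J82, 4 and 2 in RT112, and 7 and 2 in TCCSUP, with medians of 0.36, 0.07, -0.21 and 0.54. Beside the shares of all genes, 28.8% higher and 22.4% lower (253J), 24% and 18.5% (J82), 27.4% and 20.2% (RT112), and 32% and 22.1% (TCCSUP), the counts were within 3 genes, except for the 7 higher in TCCSUP. The RT112 count of 2 lower became 0 with library size scaling and without control replicate 1, control replicate 2 or treated replicate 2, and 1 with RLE, DESeq2, the 10-count filter and without treated replicate 1. In J82 the 2 lower became 1, and the 5 higher 3, with J82 fitted alone, and 1 was lower there without control replicate 3 or treated replicate 1. In TCCSUP 1 was lower with library size scaling, the 10-count filter and without either control library or treated replicate 2. PDP1, the phosphatase that reverses the kinases, rose in 253J from 20.9 to 164 CPM, in RT112 from 58.7 to 205 CPM and in TCCSUP from 304 to 408 CPM, and was at 0.10 on the log2 scale in J82 (adjusted p = 0.573). The TCCSUP call of PDP1 was lost without control replicate 1 (adjusted p = 0.127) or treated replicate 1 (adjusted p = 0.0608). Genes with opposite roles, the kinases PDK2 and PDK4 and the phosphatase PDP1, were thus raised together in 253J, RT112 and TCCSUP, though PDK4 reached only 0.658 CPM in RT112.

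NDRG1, which is induced by hypoxia, iron loss and differentiation, displayed the largest rise of any member. TCCSUP controls held 83 and 96 reads (3.28 and 3.68 CPM) and treated libraries 1084 and 1101 (40.6 and 43.3 CPM), a log2 fold change of 3.59 (SE 0.31, adjusted p = 2.81e-07). 253J went from 64.5 and 74.3 CPM to 137 and 142 CPM (1.01, SE 0.26, adjusted p = 0.00417). In J82 the controls were at 127 and 168 CPM and the treated libraries at 205 and 368 CPM (0.96, SE 0.26, adjusted p = 0.00703). Treated libraries were above both controls in these lines, and the treated J82 libraries were the most unequal. Without treated replicate 3 the J82 value was 0.48 and not called (adjusted p = 0.158), and without control replicate 1 it was also not called (adjusted p = 0.0602). RT112 controls, at 62.5 and 35.9 CPM, lay on either side of the treated values of 55.4 and 60.3 CPM (0.23, SE 0.26, adjusted p = 0.487). The effect in TCCSUP exceeded that in 253J by 2.58 on the log2 scale (253J minus TCCSUP was -2.58, SE 0.39, adjusted p = 0.000173), and RT112 minus TCCSUP was -3.36 (SE 0.40, adjusted p = 1.81e-05). TCCSUP also had the lowest control level. Means were 148 CPM in J82, 69.4 in 253J, 49.2 in RT112 and 3.48 in TCCSUP, and of the neighbours in this order 253J and RT112 did not differ beyond their spread (adjusted p = 0.12) while RT112 was above TCCSUP by 3.82 on the log2 scale (SE 0.31, adjusted p = 5.25e-08). After treatment TCCSUP reached 42.0 ± 1.94 CPM, still below the 57.9 ± 3.40 CPM of treated RT112.

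The effect of CM-1758 differed between the 4 lines for 8 of the 10 genes by an F test of the interaction, where 51.9% of all tested genes did. LDHA (adjusted p = 0.113) and PGK1 (adjusted p = 0.0581) were the exceptions, and both passed with DESeq2 (0.0311 and 0.0139). With edgeR, PGK1 also passed under library size scaling (adjusted p = 0.0239) and with a replicate block (adjusted p = 0.0377).

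Other HIF targets were called in both directions, in numbers near those of genes at large except in RT112. Of 20 such genes, 8 were higher and 7 lower in 253J, 5 and 2 in J82, 10 and 2 in RT112 (19 measured), and 6 and 7 in TCCSUP, with medians of 0.39, 0.26, 0.60 and -0.33. The shares of all genes were 28.8% higher and 22.4% lower (253J), 24% and 18.5% (J82), 27.4% and 20.2% (RT112), and 32% and 22.1% (TCCSUP), and all counts but the 10 higher in RT112 were within 3 genes of them. In RT112 5 were higher without treated replicate 2, and 1 was lower with library size scaling, the 10-count filter and without either control library or treated replicate 1. In TCCSUP 4 were lower without either treated library and with the 10-count filter, 3 with library size scaling and 11 with TCCSUP fitted alone. In J82 0 were lower with library size scaling, with J82 fitted alone and without treated replicate 3, 1 was lower without control replicate 1, and 3 were higher with J82 fitted alone. ANGPTL4, an inhibitor of lipoprotein lipase, rose in all 4 lines, from 40.5 to 141 CPM in 253J (adjusted p = 7.76e-05), 0.209 to 1.79 CPM in J82, 0.318 to 0.910 CPM in RT112 (adjusted p = 0.04998) and 7.55 to 14.4 CPM in TCCSUP. The RT112 call lay at the threshold and was lost under 15 of 24 alternatives. Among them were an adjusted p under 0.01, no filter on low counts and each of the 4 RT112 libraries left out. The TCCSUP call was lost without either control library or treated replicate 1. MXI1, which opposes MYC, also rose in all 4, by log2 fold changes of 1.01, 1.55, 1.21 and 1.85, and kept each call at an adjusted p under 0.05 in every alternative run. ANKRD37 rose in 253J (0.489 to 1.81 CPM) and in RT112 from 3 reads in each control to 0.812 CPM, fell in TCCSUP from 7.13 to 4.62 CPM (a call lost with library size scaling and without control replicate 1 or either treated library), and was at 0.24 in J82 (adjusted p = 0.391).

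Glycolysis genes outside the 10 were also called in both directions, in numbers near those of genes at large. Of 16, 6 were higher and 5 lower in 253J, 3 and 4 in J82, 5 and 6 in RT112, and 4 and 5 in TCCSUP, with medians of -0.12, -0.23, -0.26 and -0.24, below the medians of all genes. Each count was within 3 genes of the shares of all genes, 28.8% higher and 22.4% lower (253J), 24% and 18.5% (J82), 27.4% and 20.2% (RT112), and 32% and 22.1% (TCCSUP). In J82 5 were higher with library size scaling and with DESeq2 and 1 without control replicate 3, in 253J 3 were lower without treated replicate 3, and in TCCSUP 3 were lower with library size scaling. The 3 genes with the largest mean change were all higher: SLC2A3, ENO2 and ALDOC, the brain aldolase, which rose from 0.521 to 9.18 CPM in 253J, 0.969 to 2.58 CPM in J82, 8.18 to 44.0 CPM in RT112 and 5.11 to 30.6 CPM in TCCSUP. The J82 call of ALDOC was lost without control replicate 3 (adjusted p = 0.0784) or treated replicate 1 (adjusted p = 0.119). GPI, named after its values were seen and the enzyme after hexokinase, fell in J82 (-0.70), RT112 (-1.24) and TCCSUP (-1.18). In 253J it was at -0.28 (adjusted p = 0.082). PFKL, also named after its values were seen, fell in 253J (-0.93), J82 (-1.33), RT112 (-1.47) and TCCSUP (-0.94).

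**Figure D4:**
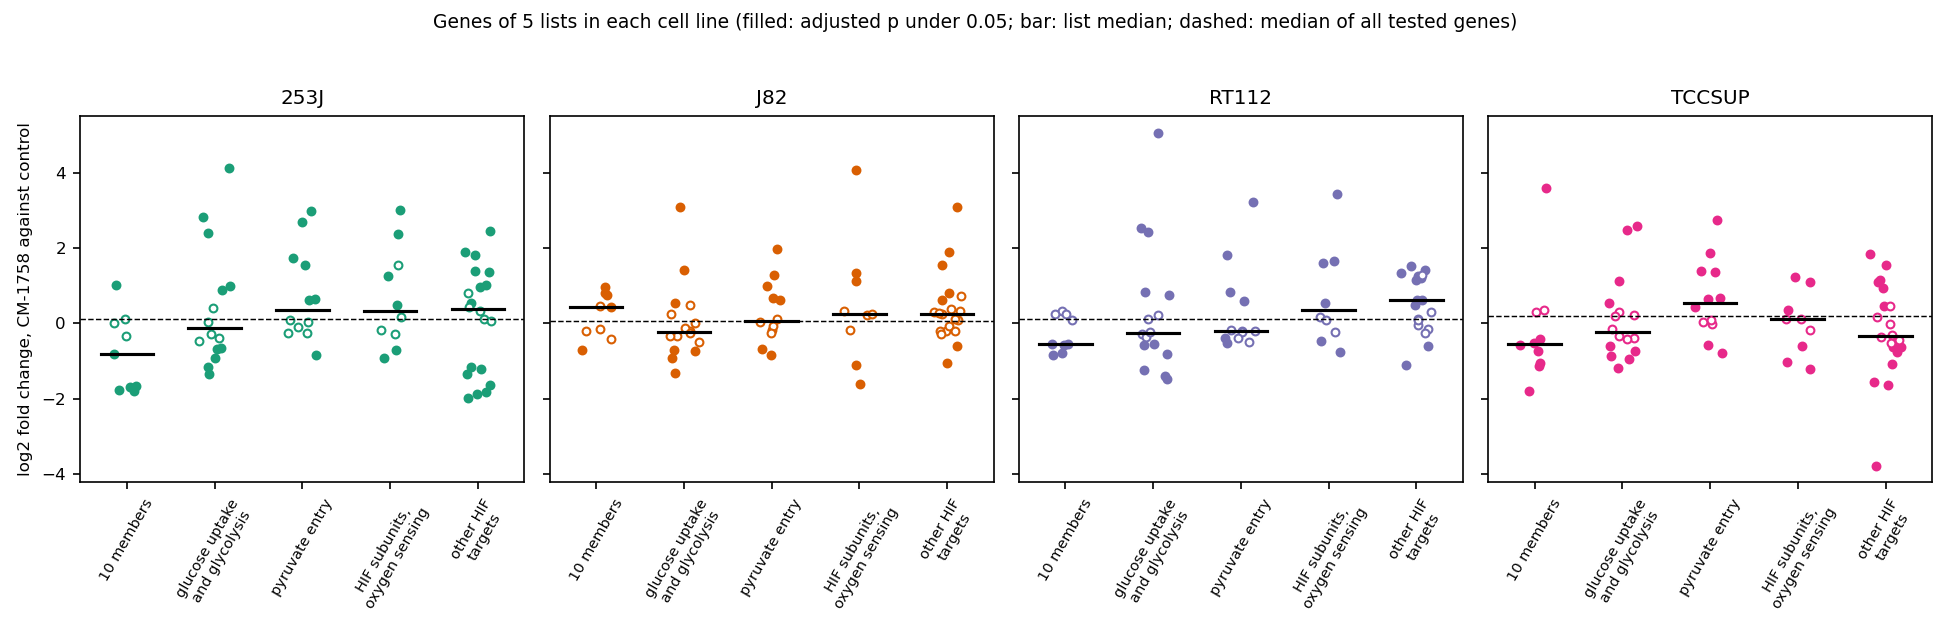
Log2 fold change of treated over control (vertical axis) for single genes of each list, by cell line, with 1 point per gene and a bar at the list's median. Genes at or under 3 counts in every library of both groups, or of 1 group, are not drawn as points. The medians of the 10 hypoxia and glycolysis genes are -0.83 (253J), 0.42 (J82), -0.56 (RT112) and -0.56 (TCCSUP).

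Across the 16 libraries HIF1A and PDK1 varied together most closely of the members (Pearson r of log2 CPM 0.88), and VEGFA and NDRG1 most oppositely (-0.81). These libraries come in 8 groups of 2 that share line and treatment, so the values describe the pattern over lines more than single libraries. Of all tested genes, those nearest to ENO1 were MAD2L1 (r = 0.98), a mitotic checkpoint gene, and HNRNPK (0.97), an RNA-binding protein gene. HIF1A was nearest to PITX1 (0.95) and DENND1B (0.94), SLC2A1 to ARID2 (0.93) of the genes reported, and VEGFA to GPC1 (0.96) and LBR (0.95). For NDRG1 they were ATP6V0A4 (0.97) and TMEM47 (0.97), for PGK1 VBP1 (0.97) and POLR2M (0.96), and for PDK1 EFNB2 (0.97) and KDM1A (0.96). For LDHA they were MBD2 (0.94) and UBE2J1 (0.94), for HK2 LINC01963 (0.96) and PTPRE (0.92), and for CA9 TCTN2 (0.94) and SMIM25 (0.93).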

How the data were processed

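Total RNA of 4 bladder cancer cell lines, treated with CM-1758 or vehicle, was sequenced by the authors as stranded total RNA libraries from independent experiments. The deposited table holds raw counts, the whole number of reads per gene symbol in 16 libraries, without normalization. The submitters' processing notes name HISAT2, StringTie and GRCh37; versions, annotation and the strand setting of counting are not given in the sources used here. All columns were assigned to samples through the titles.

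Counts were filtered with filterByExpr over 8 groups (21297 of 35993 genes), normalized by TMM and fitted in 1 quasi-likelihood model with edgeR 4.0.16 in R 4.3.3 (residual degrees of freedom 8, common biological coefficient of variation 0.153), with Benjamini-Hochberg adjustment over all tested genes within each comparison. SE is the log2 fold change divided by the root of F. The interaction was an F test of 3 contrasts. CPM used TMM library sizes, log2 CPM a prior count of 2, and the floor was 3 counts per library. Intervals are exact binomial at 95% and cover counting error only. Where genes are at 3 counts or fewer in all libraries of both groups, no fold is given. The fit was tested on simulated counts.

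The 10 genes and the lists (HIF subunits and oxygen sensing, other HIF targets, other glycolysis genes, pyruvate entry, gluconeogenesis and glycogen, VEGF family, antisense and near-copy genes, and markers of urothelium, leukocytes, endothelium and small noncoding RNA) were chosen with earlier results of these data known. Named are the 10, their isozymes, in each list the 3 genes with the largest absolute mean change among those called in a line with a mean of at least 1 CPM, and the 2 genes most correlated with each member; others are said to be chosen later, and some items are not reported here. Alternatives were RLE and library size scaling, small noncoding RNA left out, DESeq2 1.42.0, each line alone, no filter, at least 10 counts in every library, a replicate block, each library left out, and an adjusted p under 0.01. Promoter windows came from RefSeq on GRCh38.p14. Figures were drawn with matplotlib 3.10.9.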

Additional observations from a re-analysis of the deposited data

Results flagged for a closer look

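The effect of CM-1758 differed between the cell lines, by the interaction test of edgeR, for 8 of the 10 genes, where 51.9% of all tested genes did. The adjusted p-values were 3.1e-05 for HIF1A, 0.0101 for CA9, 0.00484 for VEGFA, 5.46e-06 for SLC2A1, 3.15e-05 for HK2, 0.0108 for PDK1, 4.17e-05 for NDRG1 and 0.0108 for ENO1. For HIF1A and SLC2A1 the directions were opposite, higher in J82 and lower in 253J, RT112 and TCCSUP. For ENO1 the direction was the same in the 4 lines and the size differed, and 2 of the 16 fits with a library left out no longer passed (adjusted p up to 0.063). For CA9 the test includes 253J and J82, where it was at or under 3 counts. Dose was set for each line and cannot be told apart from it, and neither can medium in comparisons with TCCSUP. 253J, J82 and RT112 shared a medium, and among them the effect on HIF1A was -1.59 for 253J minus J82 (adjusted p = 1.85e-05) and 1.32 for J82 minus RT112 (adjusted p = 0.000137).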

How the results depend on the processing

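Of 948 values of single members recomputed, 896 kept direction and side of the threshold, 28 lost the call, 16 gained one and 8 changed sign. Of 25 calls, 16 held under every alternative, among them all 6 in 253J. Library size scaling, which also raised the median of all genes, moved member medians to -0.55 (253J), 0.56 (J82), -0.41 (RT112) and -0.25 (TCCSUP), with 2 members higher in 253J, 3 higher and 4 lower in TCCSUP, and 3137 of all genes lower in TCCSUP. RLE and DESeq2 each gave medians of 0.51 in J82 and -0.48 in RT112. At least 10 counts in every library, which drops CA9, gave medians of 0.53 in J82, -0.43 in RT112 and -0.38 in TCCSUP. In RT112 1 member was then higher and 0 past a log2 fold change of 2, and in TCCSUP 3 were higher and 4 lower. Of the genes this filter kept, 3897, 3209, 3324 and 3729 were higher in 253J, J82, RT112 and TCCSUP. Fewer genes were tested there, and their number is not given here, so these counts have no share beside them. With J82 fitted alone 0 members and 2504 of all genes were lower there. HK2 was called higher in J82 with RLE, library size, DESeq2, the 10-count filter, the block and without J82 treated replicate 1, in TCCSUP with library size and the 10-count filter, as was PDK1 there, and in RT112 with the 10-count filter. PGK1 was called higher in 253J with library size. At an adjusted p under 0.01, 5 members differed between lines, and the share of all genes at that threshold is not given here. For these changes the cause was not tested.

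Leaving out each library in turn gave medians of -0.94 to -0.71 (253J), 0.30 to 0.56 (J82), -0.56 to -0.52 (RT112) and -0.65 to -0.44 (TCCSUP), where the lone library of a group is assumed to vary like the others. Members lower ran from 1 to 2 in J82 and from 4 to 7 in TCCSUP (4 without control replicate 2 or treated replicate 1), members past a log2 fold change of 2 in 253J from 0 to 1 (ENO1 without control replicate 3), and members differing between lines from 7 to 9. Signs changed only for differences that were not called with all libraries: LDHA in 253J (from -0.17 to 0.20, and -0.0092 with the line alone), PGK1 in 253J (-0.058 to 0.33), VEGFA in J82 (-0.55 to 0.22), NDRG1 in RT112 (-0.12 to 0.68) and LDHA in RT112 (-0.0087 to 0.19).

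Replicate numbers are shared by control and treated libraries in J82, RT112 and TCCSUP, where deviations correlated at 0.22, 0.04 and 0.02. The numbers were not taken as pairs in the main fit. The correlation was highest in J82, and whether its replicates are pairs was not tested. With a replicate block 2 members were lower in J82, PGK1 being added (adjusted p = 0.0484), 4 genes of pyruvate entry were lower in RT112, and SLC2A3 was not called in 253J (adjusted p = 0.0822). The estimate of spread rests on all groups and genes together, and CA9 in 253J and J82 lies below what this depth can measure.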

Other observations

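Genes of the VEGF family and its receptors were called in both directions. For this list and those below, the shares of all genes called higher and lower were 28.8% and 22.4% (253J), 24% and 18.5% (J82), 27.4% and 20.2% (RT112), and 32% and 22.1% (TCCSUP). Of 8, 1 was higher and 4 lower in 253J (6 measured), 3 and 3 in J82, 3 and 0 in RT112 (7 measured), and 4 and 4 in TCCSUP, with 0 lower in RT112 also at an unadjusted p under 0.05 and with DESeq2, and medians of -1.52, 0.07, 0.78 and 1.45 (1.32 in TCCSUP with genes at the floor set at their bound). With a filter of at least 10 counts in every library 0 of the genes still tested were called higher in any line. That filter drops genes with under 10 counts in any library, the receptors FLT4, FLT1 and KDR among them, so it does not retest their calls. FLT4 (VEGFR3), a receptor of lymphatic endothelium, fell in 253J from 8.69 ± 0.714 to 1.69 ± 0.526 CPM and was at 0 in all J82, RT112 and TCCSUP controls, where treated cells were at least 15.3-fold, 74.7-fold and 72.5-fold higher against a floor of 3 counts per library. FLT1 (VEGFR1) rose in J82 from 8.38 to 55.8 CPM, in RT112 from 0.278 to 1.45 CPM (not called without control replicate 2, adjusted p = 0.055) and in TCCSUP from 0.660 to 7.02 CPM. KDR (VEGFR2) was called in TCCSUP, from 1 read in the controls to 1.04 CPM. PGF, a ligand of FLT1 named after its values were seen, rose in all 4 lines, to 14.6 CPM in RT112. NRP1 and NRP2, coreceptors also chosen after their values were seen, fell in 253J from 404 to 52.7 CPM and from 402 to 40.6 CPM. In TCCSUP both fell, by log2 fold changes of -2.29 and -1.79. NRP1 also fell in J82 (-1.34), a call lost with J82 fitted alone and without control replicate 1. NRP1 in RT112 (0.78) and NRP2 in J82 (-0.06) and RT112 (-0.15) were not called. The endothelial markers PECAM1, VWF, CDH5 and CLDN5 summed to 6.73 CPM or less in every library, and edgeR called 1 of them higher in each line but J82, where it called 0, as at an unadjusted p under 0.05 (0) and with DESeq2 (0). DESeq2 called 2 higher in 253J, 0 in RT112 and 1 in TCCSUP.

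Among 10 genes of gluconeogenesis and glycogen, 2 were higher and 5 lower in 253J, 2 and 4 in J82, 2 and 4 in RT112, and 3 and 5 in TCCSUP, with medians of -0.50, -0.40, -0.10 and -0.37 (-0.55 in 253J and -0.20 in J82 with genes at the floor set at their bound). The 3 higher in TCCSUP became 1 without control replicate 1 or either treated library and 0 with the 10-count filter, which also left 0 higher in 253J and 1 in J82 and in RT112. Library size scaling gave 4 higher in 253J, J82 fitted alone 0 higher there, J82 without control replicate 1 or treated replicate 3 1 higher, and RT112 without control replicate 2 or treated replicate 2 2 lower. The 10-count filter drops genes with under 10 counts in any library, PCK1 and FBP1 among them, and does not retest their calls. PCK1, the enzyme that commits oxaloacetate to gluconeogenesis, was named after its values were seen. It was called higher in all 4 lines under every alternative that kept it, at 0.0937 CPM in 253J controls and 0 in the other controls. Its treated level was 2.08 CPM in 253J, and against a floor of 3 counts per library the treated libraries were higher by at least 22.8-fold (TCCSUP), 16.96-fold (RT112) and 3.04-fold (J82). PCK2, of the same list and also named after its values were seen, fell in all 4 lines (-1.55, -1.29, -0.45 and -0.63). Its group means were 31.2 to 37.3 CPM in controls and 12.6 to 24.2 CPM after treatment, above those of PCK1. The RT112 call of PCK2 was lost under 9 of 25 alternatives. GBE1, the glycogen branching enzyme, fell in all 4 lines, by log2 fold changes of -1.49, -1.31, -0.72 and -1.82. G6PC3, the ubiquitous glucose-6-phosphatase, also fell in all 4, between -1.23 and -1.44. FBP1, the gluconeogenic fructose bisphosphatase, was called in TCCSUP alone (0.230 to 1.29 CPM, adjusted p = 0.0428 by edgeR), a call that was lost with DESeq2 (adjusted p = 0.12) and without control replicate 1 (0.22), treated replicate 1 (0.0777) or treated replicate 2 (0.132).

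Of 21 antisense and near-copy genes of the members, 13 passed the filter on low counts, and 2 were higher and 0 lower in 253J, 3 and 0 in J82, 2 and 1 in RT112, and 4 and 1 in TCCSUP. The counts of 0 lower by edgeR in 253J and J82 were also 0 at an unadjusted p under 0.05 and with DESeq2, and were 1 without 253J control replicate 2 or treated replicate 3, and without J82 control replicate 3. The 1 lower in RT112 was 2 at an unadjusted p under 0.05 and without either 253J control, and 0 with RLE, library size scaling, DESeq2 and without RT112 control replicate 2 or either treated library. In TCCSUP 1 was higher without control replicate 2 and 2 without control replicate 1 or treated replicate 2, and 0 were lower without treated replicate 1. With the 10-count filter 0 of the list were called in any line, but that filter drops the genes called here, which had under 10 counts in some library, and does not retest them. SLC2A1-AS1 rose in J82, RT112 and TCCSUP, to 2.43 CPM at most, and its TCCSUP call was lost without control replicate 2 (adjusted p = 0.0993) or treated replicate 2 (adjusted p = 0.142). With the strand setting of the counting not given, reads of SLC2A1 and SLC2A1-AS1 cannot be told apart with certainty, and the same holds for the other antisense genes of the list. Of 5 leukocyte markers, 2 rose in 253J, 1 rose and 1 fell in J82, 0 were called in RT112 (0 at an unadjusted p under 0.05 and 0 with DESeq2), and 1 rose and 1 fell in TCCSUP. Of 7 small noncoding RNA genes, 1 rose and 1 fell in 253J, 0 were called by edgeR in J82 (1 lower at an unadjusted p under 0.05 and 1 with DESeq2), 1 fell in RT112 and 2 rose in TCCSUP. In 253J 3 rose at an unadjusted p under 0.05 and with DESeq2, and in TCCSUP 3 rose with DESeq2. The calls of RMRP in 253J and of RN7SK in RT112 were each lost under 5 of 24 alternatives.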
